A study of Mus musculus with 8 samples.

Results

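RAW macrophages, cells of a mouse line that grew out of a virus-induced leukemia and behaves like macrophages, were compared after lipopolysaccharide (LPS) and without it, with no statin in either group. LPS libraries came from cells given LPS. By the study's protocol for RAW cells LPS was given at 100 ng/ml for 3 h in DMEM with bovine serum albumin, and whether these 4 libraries are among those listed under that protocol was not settled. The ctl libraries came from untreated cells of the same line, and the labels do not give their medium. The members are the 2 LPS and the 2 ctl libraries that stand together in 1 table of the series, 4 of the 20 library columns in all tables, and the 11805 of 24421 listed genes with a normalized count of 10 or more in at least 2 of these 4 libraries. Other arms of the study were treated with methyl-β-cyclodextrin or a statin, agents that lower cellular cholesterol. LPS and control columns under other names stand in other tables of the series, and it could not be settled from the labels which of them belong to the 8 listed samples. Whether replicates were separate cultures is not stated either, so any p-value refers to the spread among these 4 libraries alone, which may be technical.

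LPS is a glycolipid of the outer membrane of Gram-negative bacteria. Macrophages sense it with CD14, MD-2 (the product of Ly96) and Toll-like receptor 4, which signals through MyD88 to NF-κB and MAP kinases and through TRIF to IRF3. The first arm drives cytokine, chemokine and feedback genes, and the second drives interferon-β, which acts back on the cell through STAT factors and IRF9 to raise the interferon-stimulated genes.

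Depth was high and differed between libraries. The LPS libraries held 76423673 and 51088884 reads in genes, and the ctl libraries 46549485 and 37001178. At these depths 3 reads correspond to 2.64 and 3.95 normalized counts in LPS and to 2.47 and 3.11 in ctl. The values are counts that the authors divided by a size factor per library, so a normalized count is a read count on a common scale and is not corrected for gene length. On that scale the LPS libraries summed to 1.75 times the ctl libraries, and scaling to total counts lowered the log2 fold change of the typical gene by 0.81. Directions below were therefore read under both scalings. The macrophage markers Spi1, Csf1r, Cd68, Adgre1, Itgam, Lyz2, Fcgr3, Mpeg1, Ptprc and Fcer1g summed to 769377 and 769256 normalized counts in LPS and to 629011 and 712986 in ctl, with 6 of the 10 higher in LPS under the deposited scaling. With total-count scaling Spi1, Adgre1, Itgam, Ptprc and Fcer1g were higher and Mpeg1 was not called. Csf1r, Cd68, Lyz2 and Fcgr3 were then lower, at -0.95, -1.02, -1.18 and -1.08 on the log2 scale. Of markers of other cell types, all 4 of NK cells and all 3 of erythroid cells were at 0 in every library, as were 3 of 6 of T cells, 2 of 5 of B cells, 2 of 4 of neutrophils and 4 of 5 of mast cells. The B cell markers summed to 7.91 and 21.1 normalized counts in LPS and to 0 in both ctl libraries. The mast cell markers, of which only Kit was read, summed to 6.16 and 17.1 in LPS and to 0 in both ctl libraries. The neutrophil markers summed to 9.67 and 1.32 in LPS and to 27.2 and 10.4 in ctl. Lck, a kinase best known in T cells, had 1610.2 and 1726 normalized counts in LPS, against 209 and 154 in ctl, and the endothelial receptor gene Kdr had 499 and 483 normalized counts in LPS, against 9.07 and 7.26 in ctl. Their part in other results was not tested. The 2 LPS libraries resembled each other more than the 2 ctl libraries did, with an SD of the log2 ratio between replicates of 0.30 in LPS and 0.39 in ctl over the tested genes. Both pairs differed by more than counting noise, with a median chi-square per gene of 0.837 in LPS and 7.19 in ctl, where noise alone gives 0.455.

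LPS replicate 1 stood apart in a small set of genes. There, 39 genes reached a normalized count of 50 or more and at least 10 times the level of every other library, and 0 genes did so in any other library. Among them were the collagen gene Col1a1 (328 against 0 in LPS replicate 2), the complement gene C1qb (843 against 0) and the lipoprotein gene Apoe (6830.2 against 32.9). The 5 fibroblast markers (Col1a1, Col1a2, Col3a1, Dcn, Pdgfra) summed to 841 in LPS replicate 1 and to 1.32 in LPS replicate 2, and to between 0 and 1.65 in the ctl libraries. Together the 39 genes made 0.0187% of the normalized counts of LPS replicate 1. The low value filter kept 3 of these, of which AW112010 and Pla2g7 passed the test. Their part in other results was not tested, and values without LPS replicate 1 are given where they matter.

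Most tested genes differed between LPS and ctl. Of the 11805 genes tested, 4513 (38.2%) were higher and 4271 (36.2%) lower in LPS than in ctl (limma on log2 of the value + 1, adjusted p under 0.05). Counts of called genes by list below are to be read against these shares. The low value filter can be met by the 2 libraries of 1 group alone. A gene under 10 normalized counts in both libraries of the other group can then be called in 1 direction only. List counts include such genes, among them Csf2, Csf3, Cxcl1, Cxcl9, Ccl7, Cish and Socs2. A change of 2-fold or more was seen in 2317 higher and 2113 lower genes. Large changes ran mostly upward, since 766 genes were higher by at least 8-fold and 339 lower, and 86 genes were higher by at least 256-fold and 0 lower. With total-count scaling the calls became 2129 higher (18.0%) and 7931 lower (67.2%), so the split depends on the scaling.

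The share of reads that a list took differed most plainly for a few classes of genes. The 36 interferon-stimulated genes took 6.72% and 6.69% of reads in LPS, against 0.139% and 0.115% in ctl. The chemokine lists moved likewise, with the CXC chemokines at 1.44% and 1.42% in LPS against 0.0227% and 0.0239% in ctl, and the CC chemokines at 1.40% and 1.43% in LPS against 0.0295% and 0.0388% in ctl. The 32 DNA replication genes went the other way, with 0.0522% and 0.0510% in LPS against 0.421% and 0.347% in ctl. The 33 mitosis genes took 0.0511% and 0.0503% in LPS against 0.588% and 0.437% in ctl, and here ctl replicate 1 lay above ctl replicate 2. In bulk RNA, fewer cells in a phase and less RNA per cell cannot be told apart.

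**Figure D1:**
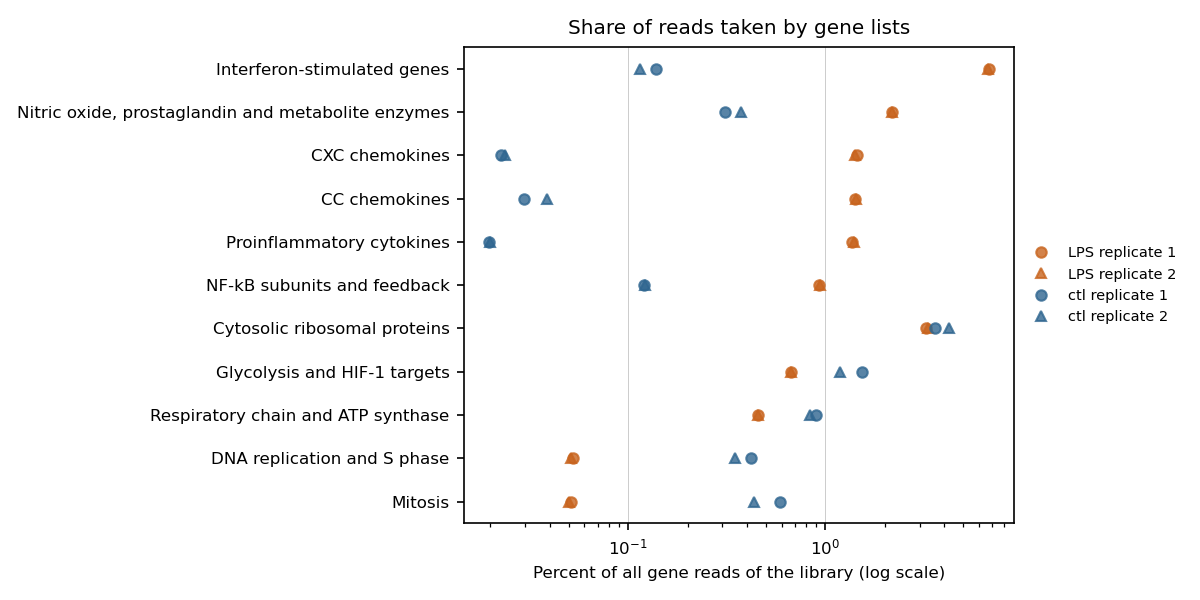
Percent of all gene reads of each library (log axis) taken by 11 gene lists, with LPS libraries in orange and ctl libraries in blue and 1 symbol per replicate. The interferon, chemokine and cytokine lists lie far to the right in LPS (6.72% and 6.69% against 0.139% and 0.115% for interferon-stimulated genes), the replication and mitosis lists far to the left, and ribosomal protein genes differ little (3.25% and 3.30% in LPS against 3.60% and 4.24% in ctl).

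The 12 named genes with the largest rises were Ifnb1, Dll1, Slfn1, Cxcl11, Rsad2, Lif, Gbp5, Marcks, Il1b, Ccl22, Csf3 and Nr4a3. Ifnb1, the gene of interferon-β (chromosome 4, 88522025 to 88522794, GRCm38), had 9841 and 10141 normalized counts in LPS, against 9.90 and 5.19 in ctl (log2 fold change 10.25, SE 0.28, adjusted p = 1.2e-05). Rsad2, which encodes the antiviral protein viperin, had 1054122 and 1059172 normalized counts in LPS, against 1153 and 1057 in ctl (log2 fold change 9.90, SE 0.08, adjusted p = 1.1e-06). The groups lay 1217-fold and 956-fold apart on the log2(value + 1) scale. The ctl libraries of Ifnb1 differed almost 2-fold, and its log2 fold change was 10.66 without ctl replicate 1 and 9.84 without ctl replicate 2. Dll1, a Notch ligand, had 2348 and 2277 normalized counts in LPS, against 0 and 4.15 in ctl, and Marcks, an actin-binding substrate of protein kinase C, had 9589 and 9459 normalized counts in LPS, against 7.42 and 11.4 in ctl. Slfn1, a Schlafen family gene of the interferon response, had 6599 and 6384 normalized counts in LPS, against 5.77 and 5.19 in ctl. Their log2 fold changes were 9.99, 9.86 and 9.97. That of Dll1 was 8.81 without ctl replicate 1 and 11.18 without ctl replicate 2.

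Spp1, which encodes the secreted phosphoprotein osteopontin, gained the most normalized counts of any gene, with 1539314 and 1536970.0 normalized counts in LPS, against 141591 and 117182 in ctl (log2 fold change 3.58, SE 0.21, adjusted p = 1.0e-04). Irg1, listed under its older symbol for Acod1, encodes the enzyme that makes itaconate and had 622950.0 and 626772 normalized counts in LPS, against 1206 and 1135 in ctl (log2 fold change 9.06, SE 0.07, adjusted p = 1.1e-06). Next in gain after Rsad2 and Irg1 came Ifit2, Actb, Cxcl10, Tnf and Ccl3. Actb, the cytoplasmic actin gene often used as a reference in PCR, was among them with 652844 and 663686 normalized counts in LPS, against 145593 and 139859 in ctl (log2 fold change 2.21, SE 0.16, adjusted p = 2.1e-04). It stayed higher with total-count scaling, at a log2 fold change of 1.40.

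Among genes read most in LPS, large rises ended near 1 ratio. Of 1251 genes with an LPS mean of 10000 or more, 0 had a ctl mean under 0.1% of the LPS mean and 28 lay between 0.1% and 0.2%. These 28 included genes as far apart in reads as Rsad2, with a mean of 1056647 in LPS and 1105 in ctl, and Hdc, with a mean of 12007 in LPS and 17.7 in ctl. The lowest ratio was that of Cxcl11, at 0.102%. Set against single libraries, 1 gene lay under 0.1% in ctl replicate 1 and 4 in ctl replicate 2. Genes with lower LPS means went past this ratio, among them Ifnb1, with means of 9991 in LPS and 7.54 in ctl, and Slfn1, with means of 6492 in LPS and 5.48 in ctl.

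**Figure D2:**
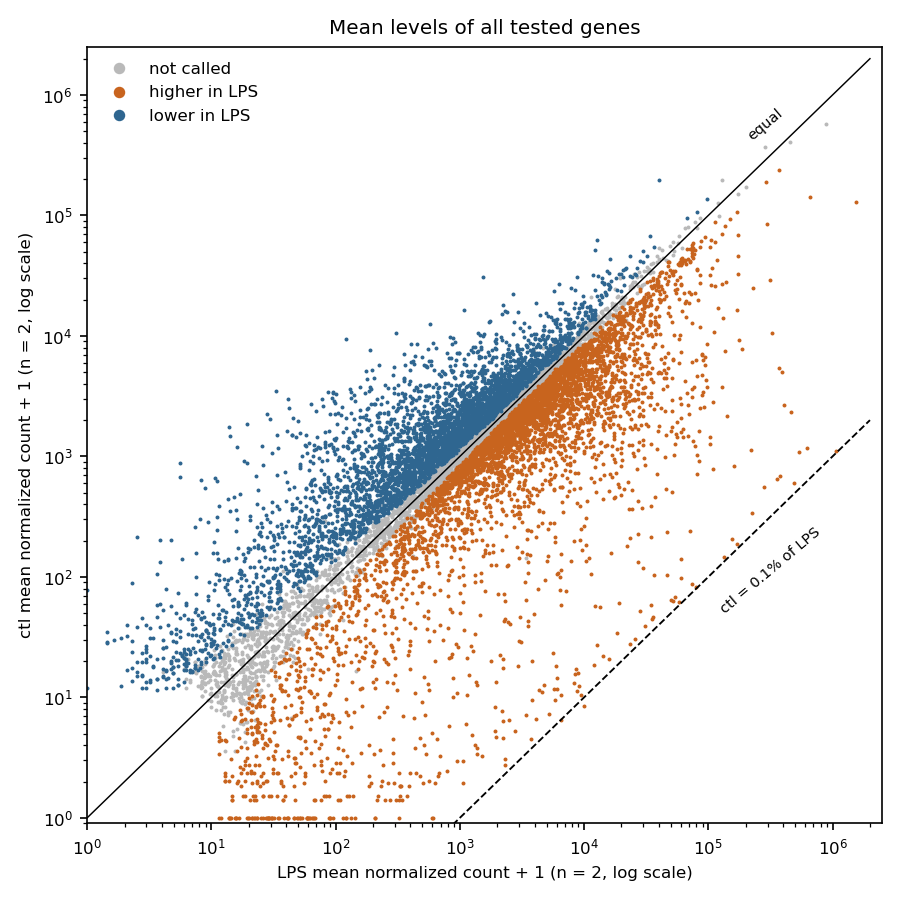
Mean normalized count + 1 of each tested gene in LPS (horizontal, n = 2) and ctl (vertical, n = 2), both on log axes, with called genes in orange (higher in LPS) and blue (lower in LPS) and the rest in gray, under the deposited scaling. The solid line marks equal levels and the dashed line a ctl level of 0.1% of LPS. The 28 genes with an LPS mean of 10000 or more and a ctl mean between 0.1% and 0.2% of it lie just above the dashed line, and Ifnb1 lies below it.

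The cytokine genes rose as a block. All 15 tested members of the proinflammatory cytokine list rose, with a median log2 fold change of 9.29 (the same with Csf2, at 0 in ctl, set to its bound) against 0.01 over all tested genes, and all 15 also rose with total-count scaling. Of these, Csf2, Csf3, Il12b and Il23a passed the low value filter through the LPS libraries alone and could only come out higher. Il1b, which encodes interleukin-1β, had 168089.6 and 169437 normalized counts in LPS, against 192 and 179 in ctl (log2 fold change 9.82, SE 0.06, adjusted p = 8.4e-07), and Il1a followed it with 52091 and 51222 normalized counts in LPS, against 60.2 and 63.3 in ctl. Tnf had 449453 and 472564 normalized counts in LPS, against 2441 and 2273 in ctl (log2 fold change 7.61, SE 0.08, adjusted p = 1.4e-06). Tnf thus had reads in resting cells. Il6 had few there, with 23598 and 22958 normalized counts in LPS, against 23.9 and 29.0 in ctl (log2 fold change 9.73, SE 0.12, adjusted p = 2.1e-06), and its LPS libraries differed little.

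Cytokines with regulatory and growth roles moved alike. Lif, an interleukin-6 family cytokine, had 57934 and 58757 normalized counts in LPS, against 56.9 and 64.3 in ctl (log2 fold change 9.89, SE 0.08, adjusted p = 1.1e-06). Csf3, the granulocyte colony-stimulating factor gene, had 3787 and 3689 normalized counts in LPS, against 4.95 and 2.07 in ctl (log2 fold change 9.77, SE 0.34, adjusted p = 2.1e-05). Il23a and Il27, which encode subunits of interleukin-23 and interleukin-27, had log2 fold changes of 9.29 and 9.73. Csf2, the granulocyte-macrophage colony-stimulating factor gene, had 208 and 205 normalized counts in LPS, against 0 and 0 in ctl, a rise of at least 150.3-fold against a floor of 3 reads over the ctl group. Il12b, the p40 subunit shared by interleukin-12 and interleukin-23, had 318 and 107 normalized counts in LPS, against 0.825 and 0 in ctl, with 1 read in ctl, and the ratio of reads was 508 (exact 95% interval 90.8 to 20125, counting error only). Its LPS replicates differed almost 3-fold, and its log2 fold change was 6.32 without LPS replicate 1, against 7.10 with both.

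Among anti-inflammatory mediators 6 of 7 tested genes rose, with a median of 2.54, and 5 rose and 1 fell with total-count scaling. Il1rn, the interleukin-1 receptor antagonist, had 83262 and 85111 normalized counts in LPS, against 1979 and 1301 in ctl (log2 fold change 5.71, SE 0.20, adjusted p = 2.3e-05). Il10 had 62.4 and 38.2 normalized counts in LPS, against 0 and 0 in ctl, at least 38.3-fold higher against the same floor. The interleukin-10 receptor gene Il10ra and the interleukin-4 receptor gene Il4ra also rose, by log2 fold changes of 3.23 and 2.54. Mrc1, the mannose receptor, did not pass, with 215 and 81.6 normalized counts in LPS, against 91.5 and 217 in ctl, and both groups spread more than 2-fold. Arg1, a marker of alternative activation, had 0 reads in every library, and Chil3 had 2 reads in LPS replicate 1 and 0 elsewhere.

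Chemokines rose in both families, 7 of 8 tested CXC members (median 7.25, or 7.34 with the member at 0 in ctl set to its bound) and 9 of 9 tested CC members (median 7.69), and the counts were the same with total-count scaling. Cxcl10, a ligand of the receptor CXCR3 on T and NK cells, had 492839 and 491086 normalized counts in LPS, against 608 and 596 in ctl (log2 fold change 9.67, SE 0.06, adjusted p = 8.4e-07). Cxcl11, another CXCR3 ligand, had 78405 and 81844 normalized counts in LPS, against 81.7 and 81.9 in ctl (log2 fold change 9.92, SE 0.06, adjusted p = 8.4e-07). In the reference annotation 41.7% of its exonic bases are shared with a gene on the opposite strand. Cxcl9, the remaining ligand of that receptor, had 2847 and 2729.8 normalized counts in LPS, against 3.30 and 5.19 in ctl.

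Of the neutrophil chemokines, Cxcl2 had 362740.2 and 346654 normalized counts in LPS, against 697 and 596 in ctl (log2 fold change 9.10, SE 0.09, adjusted p = 1.4e-06). Cxcl1 and Cxcl3 were far lower in reads and uneven between LPS replicates, with 100.3 and 17.1 normalized counts in LPS, against 0 and 0 in ctl for Cxcl1 and 102 and 30.3 normalized counts in LPS, against 0.825 and 0 in ctl for Cxcl3. Over both LPS libraries the rise of Cxcl1 was at least 48.6-fold, and that of Cxcl3 had a ratio of 160 (exact 95% interval 28.2 to 6345). Without LPS replicate 1 the log2 fold change of Cxcl1 was 4.18, against 5.42 with both, and that of Cxcl3 was 4.53, against 5.39 with both. Cxcl16 rose by a log2 fold change of 2.11. Cxcl14 did not pass, with 270.0 and 294 normalized counts in LPS, against 572 and 165 in ctl, where the ctl libraries lay on both sides of LPS, and its log2 fold change was 0.77 without ctl replicate 1 and -1.02 without ctl replicate 2, both called.

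Among the CC chemokines, Ccl5 had 152068 and 156539 normalized counts in LPS, against 224 and 185 in ctl (log2 fold change 9.56, SE 0.10, adjusted p = 1.5e-06) and Ccl22, a ligand of CCR4, had 25899 and 25972 normalized counts in LPS, against 37.1 and 21.8 in ctl (log2 fold change 9.78, SE 0.25, adjusted p = 9.8e-06). Ccl2 and Ccl7, which attract monocytes through CCR2, had log2 fold changes of 9.08 and 8.92. Ccl3 and Ccl4, inflammatory chemokine genes, were already read in ctl. Ccl3 had 400206 and 406539 normalized counts in LPS, against 2473 and 2901 in ctl (log2 fold change 7.23, SE 0.10, adjusted p = 2.8e-06), and Ccl4 had 158001 and 166613 normalized counts in LPS, against 662 and 1014 in ctl.

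**Figure D3:**
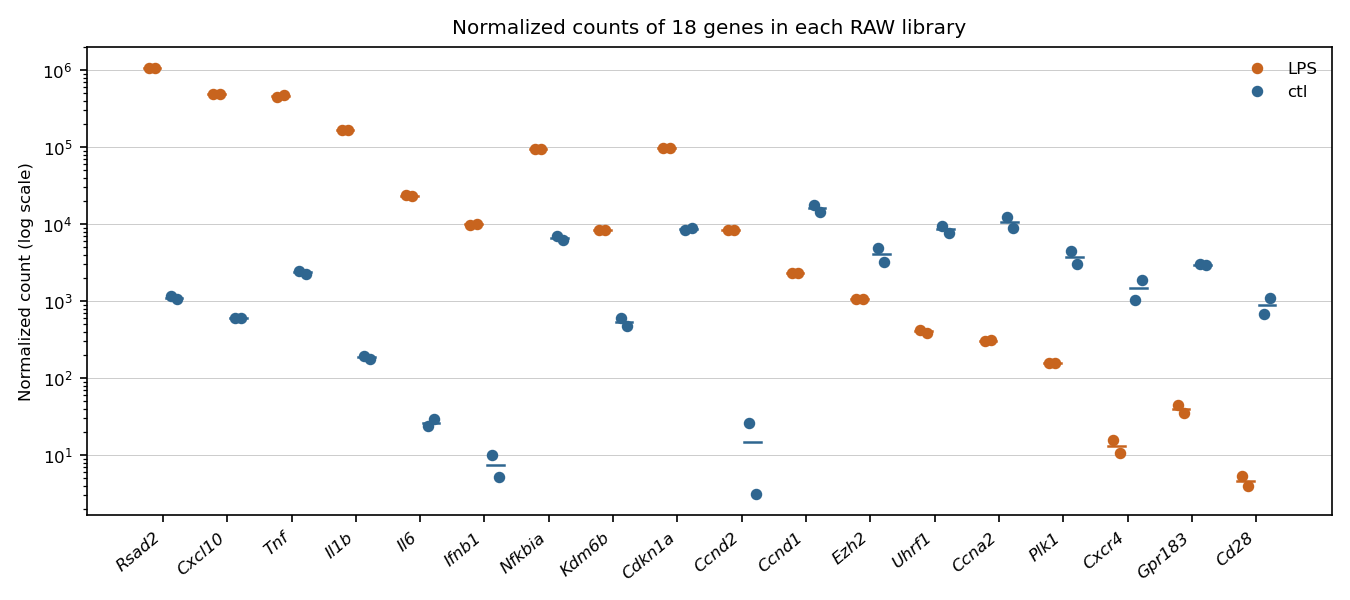
Normalized counts (log axis) of selected genes in each library, with the 2 LPS libraries in orange left of the 2 ctl libraries in blue and short lines at the group means. LPS lies above ctl from Rsad2 to Ccnd2 and below it from Ccnd1 to Cd28, with no overlap of the groups, and these directions are the same under total-count scaling.

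Promoter sequences of a few members are printed because their lists moved together in opposite directions. Each runs from 250 bases before to 50 bases after a RefSeq start site (GRCm38.p6), 5′ to 3′ on the gene's strand, with motif matches in capitals. The motifs were searched on both strands: GGGANNNTCC (κB-like), TTTCNNTTTC (a core of the interferon response element), TTTCGCGC (E2F-like), TTTGAA (the cell cycle homology region), CCAAT and TGANTCA (AP-1-like). Capitals mark the κB-like and interferon-type matches in Cxcl10, Ifit1, Il6 and Nfkbia, the E2F-like match in Uhrf1 and the TTTGAA and CCAAT matches in Plk1. Other matches in these promoters are left in lower case. For Uhrf1 the table holds 2 promoters, of which 1 is printed.

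Cxcl10, chr5:92348840-92349139, minus strand: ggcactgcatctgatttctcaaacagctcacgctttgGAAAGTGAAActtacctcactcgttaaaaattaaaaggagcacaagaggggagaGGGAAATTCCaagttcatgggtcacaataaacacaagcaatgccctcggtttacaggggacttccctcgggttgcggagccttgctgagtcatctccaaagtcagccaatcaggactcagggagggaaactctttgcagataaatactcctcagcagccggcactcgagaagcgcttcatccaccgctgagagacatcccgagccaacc
Ifit1, chr19:34640639-34640938, plus strand: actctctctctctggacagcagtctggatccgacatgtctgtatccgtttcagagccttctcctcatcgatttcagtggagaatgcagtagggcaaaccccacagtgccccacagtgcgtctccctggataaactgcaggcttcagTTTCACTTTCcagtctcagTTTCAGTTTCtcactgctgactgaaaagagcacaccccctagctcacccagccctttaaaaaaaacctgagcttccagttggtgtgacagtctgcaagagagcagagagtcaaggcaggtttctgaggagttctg
Il6, chr5:30012864-30013163, plus strand: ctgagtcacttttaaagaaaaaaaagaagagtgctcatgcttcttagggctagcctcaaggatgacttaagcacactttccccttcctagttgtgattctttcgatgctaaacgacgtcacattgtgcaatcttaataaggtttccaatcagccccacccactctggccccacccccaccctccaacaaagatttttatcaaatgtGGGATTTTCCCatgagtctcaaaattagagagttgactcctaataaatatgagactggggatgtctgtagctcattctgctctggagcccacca
Nfkbia, chr12:55492598-55492897, minus strand: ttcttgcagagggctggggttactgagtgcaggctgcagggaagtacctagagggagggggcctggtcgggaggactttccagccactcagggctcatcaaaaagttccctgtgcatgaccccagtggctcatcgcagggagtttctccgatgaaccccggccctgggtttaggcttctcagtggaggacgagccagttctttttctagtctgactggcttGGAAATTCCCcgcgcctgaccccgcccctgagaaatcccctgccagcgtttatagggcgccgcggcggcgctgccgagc
Uhrf1, chr17:56304063-56304362, plus strand: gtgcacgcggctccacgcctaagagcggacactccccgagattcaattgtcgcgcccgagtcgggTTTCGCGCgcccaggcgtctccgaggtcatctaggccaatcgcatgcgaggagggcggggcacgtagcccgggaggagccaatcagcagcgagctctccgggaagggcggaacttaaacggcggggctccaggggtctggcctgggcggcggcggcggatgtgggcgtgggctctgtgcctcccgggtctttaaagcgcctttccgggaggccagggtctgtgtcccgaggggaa
Plk1, chr7:122159185-122159484, plus strand: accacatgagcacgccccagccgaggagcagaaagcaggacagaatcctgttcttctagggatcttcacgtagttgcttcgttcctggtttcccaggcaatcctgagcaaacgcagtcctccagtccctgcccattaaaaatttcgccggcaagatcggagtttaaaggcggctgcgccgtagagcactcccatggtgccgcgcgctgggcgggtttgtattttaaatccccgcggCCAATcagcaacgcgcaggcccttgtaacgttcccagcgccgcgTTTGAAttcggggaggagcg

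Cxcl10 held 1 κB-like match starting at base -159 from the start site and 1 interferon-type match at -213, and Ifit1 held 2 interferon-type matches at -104 and -85. Il6 held 2 κB-like matches at -44 and -43, which overlap each other, and Nfkbia held 1 at -29. Uhrf1 held the E2F-like match at -185, and Plk1 held CCAAT at -14 and TTTGAA at 31. Interferon-type matches stood in 19 of the 32 promoters found for 27 of the 36 interferon-stimulated genes (59.4%), against 3.44% of all 32851 promoters. They also stood in 2 of 7 CXC chemokine promoters (28.6%), 5 of 33 ribosomal protein promoters (15.2%) and 1 of 30 mitosis promoters (3.33%). A κB-like match stood in 4 of 7 CXC chemokine promoters (57.1%) and 4 of 20 promoters of the NF-κB list (20.0%), against 4.59% of all. The same match stood in 2 of 12 promoters of the proinflammatory cytokines (16.7%), 1 of 6 of the CC chemokines (16.7%), 5 of 32 of the interferon-stimulated genes (15.6%), 3 of 32 of the replication genes (9.38%) and 3 of 30 of the mitosis genes (10.0%). The AP-1-like motif stood in 10 of 32 promoters of interferon-stimulated genes (31.2%) and 3 of 20 of the NF-κB list (15.0%), against 7.81% of all, and in 0 of the replication and mitosis promoters. It also stood in 3 of 12 promoters of the proinflammatory cytokines (25.0%), 2 of 7 of the CXC chemokines (28.6%) and 1 of 6 of the CC chemokines (16.7%). TTTGAA stood in 23 of 30 mitosis promoters (76.7%) against 17.9% of all, CCAAT in 26 of 30 (86.7%) against 37.4% of all, and the E2F-like motif in 6 of 32 replication promoters (18.8%) against 0.323% of all. Lists that rose held TTTGAA too, with 8 of 32 interferon-stimulated (25.0%) and 2 of 6 CC chemokine promoters (33.3%). In replication promoters TTTGAA stood in 4 of 32 (12.5%) and CCAAT in 19 of 32 (59.4%). The E2F-like motif also stood in 1 of 30 mitosis promoters (3.33%) and 1 of 33 ribosomal protein promoters (3.03%). Among the 11451 promoters of tested genes alone the shares were 3.34% for the interferon-type motif, 5.4% for the κB-like motif, 38.0% for CCAAT and 0.655% for the E2F-like motif, and 1371 of them held TTTGAA. A match is a description of letters and was not tested as a binding site.

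NF-κB subunits and their feedback genes rose under the deposited scaling. All 18 members passed and were higher, with a median log2 fold change of 3.58, while 16 were higher and 2 (Tnip3 and Cyld) lower with total-count scaling. Nfkbia, which encodes the inhibitor IκBα and has the κB-like match at -29, had 94598 and 94729 normalized counts in LPS, against 7109 and 6142 in ctl (log2 fold change 3.84, SE 0.09, adjusted p = 8.3e-06). Nfkbiz, an atypical nuclear IκB, had 107887 and 108772 normalized counts in LPS, against 751 and 817 in ctl (log2 fold change 7.11, SE 0.07, adjusted p = 1.2e-06). Tnfaip3, the ubiquitin editor A20 that limits NF-κB signaling, had 81028 and 81012 normalized counts in LPS, against 701 and 716 in ctl (log2 fold change 6.84, SE 0.05, adjusted p = 1.1e-06). Zc3h12a, the endonuclease Regnase-1 that cuts cytokine mRNAs, rose by a log2 fold change of 5.08. Among the subunits, Nfkb2 rose by 4.37, Rel by 3.91, Nfkb1 by 3.65 and Rela by 1.93, all on the log2 scale.

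Immediate-early transcription factors were more mixed, with 18 of 24 higher and 2 lower, a median of 2.63, and 15 higher and 5 lower with total-count scaling, and 1 was lower when either LPS replicate was left out. Nr4a3, an orphan nuclear receptor, had 2305 and 2316 normalized counts in LPS, against 2.47 and 1.04 in ctl (log2 fold change 9.76, SE 0.30, adjusted p = 1.5e-05). Egr1, a zinc finger factor, had 24100.5 and 24455 normalized counts in LPS, against 1692 and 1664 in ctl (log2 fold change 3.85, SE 0.05, adjusted p = 2.7e-06), and Maff, a small Maf factor, rose by 4.28 on the log2 scale. Fosl1, an AP-1 subunit, had 794 and 795 normalized counts in LPS, against 107 and 30.1 in ctl, with ctl libraries more than 3-fold apart. Its log2 fold change was 4.68 and 2.88 in the fits that left out ctl replicate 1 and ctl replicate 2. In the reference annotation 57.2% of its exonic bases are shared with the opposite-strand gene Ccdc85b. Fos and Jun are the founding AP-1 pair. Jun was lower, with 1248 and 1213 normalized counts in LPS, against 3166 and 4923 in ctl (log2 fold change -1.68, SE 0.21, adjusted p = 0.0014), and Fos had a log2 fold change of 0.52 that became -0.29 with total-count scaling, and its call was lost when either LPS replicate was left out.

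Feedback on MAP kinases and on mRNA stability rose in 14 of 17 tested genes, with 1 lower and a median of 2.47, against 12 higher and 3 lower with total-count scaling. The dual specificity phosphatase genes Dusp2, Dusp8 and Dusp5 rose by 6.26, 6.21 and 6.05 on the log2 scale, and the stress gene Gadd45b by 6.06. Zfp36 and Zfp36l2, genes of 1 family, moved in opposite directions. Zfp36, tristetraprolin itself, which marks cytokine mRNAs for decay, had 54621 and 56072 normalized counts in LPS, against 1449 and 1614 in ctl (log2 fold change 5.18, SE 0.07, adjusted p = 2.9e-06). Zfp36l2 had 589 and 561 normalized counts in LPS, against 12510.0 and 12556 in ctl (log2 fold change -4.44, SE 0.06, adjusted p = 2.6e-06). Both directions held with total-count scaling. Zfp36l1, from the same family, did not pass at -0.12 but was lower with total-count scaling, at -0.93, and was called at -0.31 without ctl replicate 1, all on the log2 scale.

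**Figure D4:**
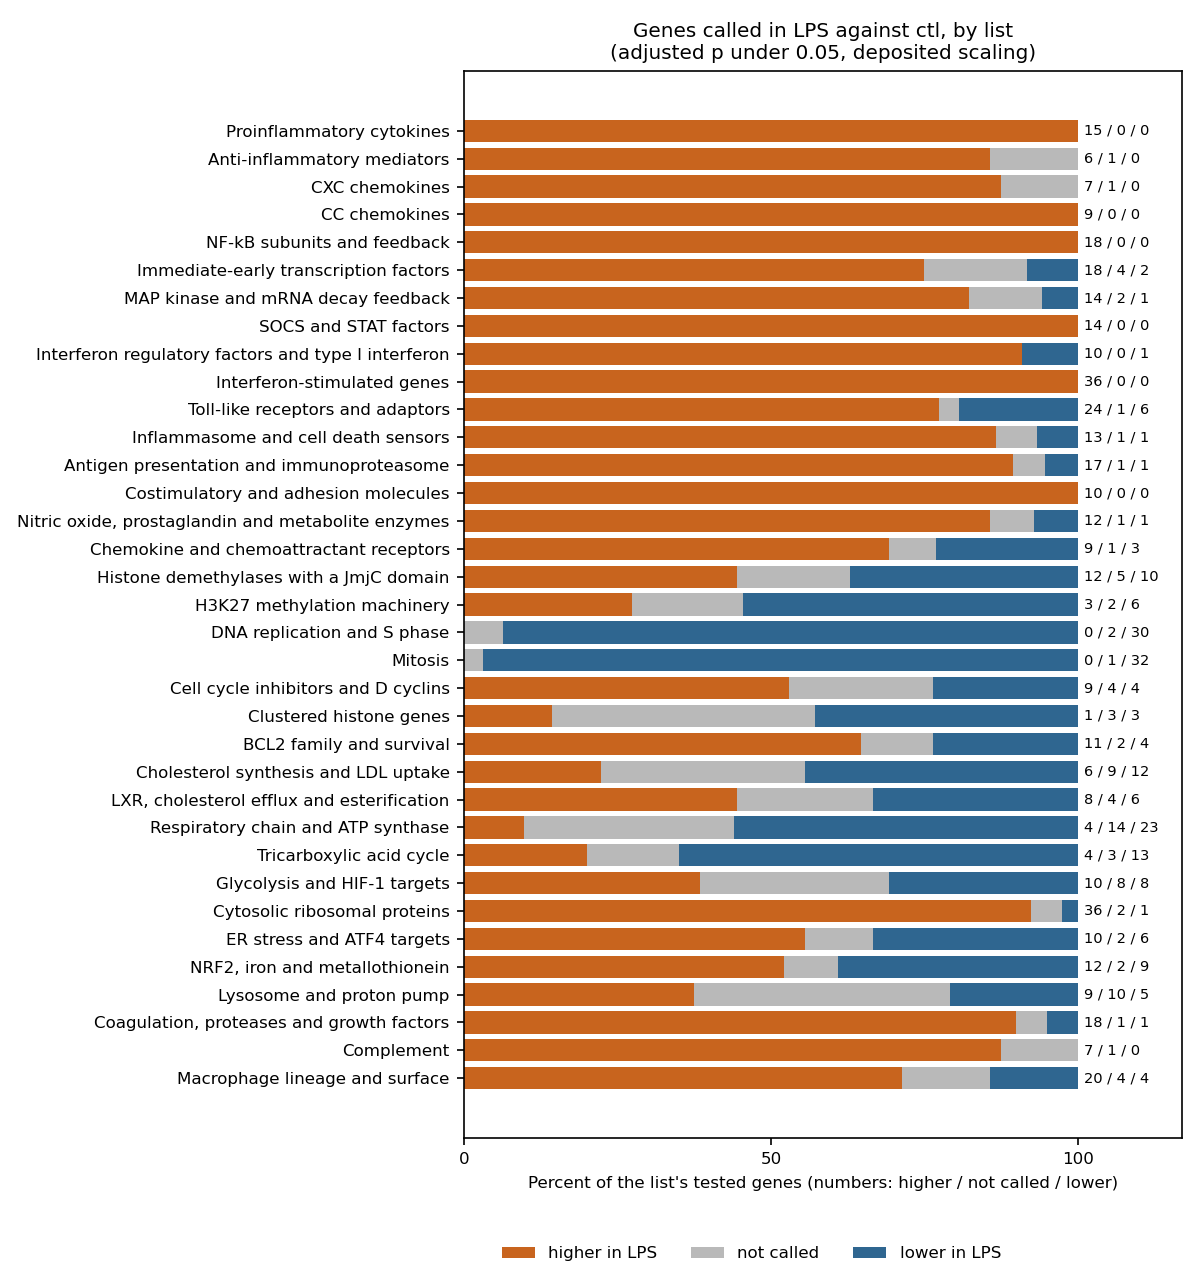
Percent of the tested genes of each list that were higher in LPS (orange), not called (gray) or lower in LPS (blue) at an adjusted p under 0.05 with the deposited scaling, with the counts at the right. Cytokine, chemokine, interferon and NF-κB lists are higher throughout or nearly so, replication and mitosis are lower (30 of 32 and 32 of 33), and with total-count scaling the ribosomal protein bar changes from 36 higher to 0 higher.

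Genes of interferon-β, its receptor and the interferon regulatory factors mostly rose. Of 11 tested genes of this list 10 were higher and 1 lower (8 and 3 with total-count scaling), with a median of 2.47. Irf1 had 80533 and 80896 normalized counts in LPS, against 1017 and 1035 in ctl (log2 fold change 6.30, SE 0.05, adjusted p = 1.1e-06). Irf7, the factor that amplifies interferon genes, had 74774 and 75543 normalized counts in LPS, against 1859 and 832 in ctl (log2 fold change 5.92, SE 0.38, adjusted p = 1.3e-04), with ctl libraries more than 2-fold apart. Irf9, a DNA-binding partner of STAT factors, rose by 2.49 on the log2 scale. Irf3, the factor that LPS activates through TRIF, was the lower one, with 1456 and 1449.9 normalized counts in LPS, against 1978 and 1983 in ctl (log2 fold change -0.45, SE 0.06, adjusted p = 0.0019).

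All 36 interferon-stimulated genes were tested and all rose under both scalings, with a median log2 fold change of 7.67 and a range from 2.81 to 9.90. The smallest rises were in the oligoadenylate synthetases Oas3 and Oas1a and in Bst2. Gbp5, a guanylate-binding protein that acts on pathogen vacuoles, had 134574 and 134169 normalized counts in LPS, against 166 and 122 in ctl (log2 fold change 9.87, SE 0.15, adjusted p = 3.3e-06). Ifit1, which binds foreign RNA and has 2 interferon-type matches in its promoter, had 225667 and 225082 normalized counts in LPS, against 351 and 321 in ctl (log2 fold change 9.39, SE 0.07, adjusted p = 9.6e-07). Mx1 had 34857 and 35043 normalized counts in LPS, against 53.6 and 33.2 in ctl, and Isg15, a ubiquitin-like modifier, had 72841 and 69352 normalized counts in LPS, against 285 and 189.8 in ctl. Near-identical copies, such as the Ifit3 and Ifit3b pair, may share reads, and their single values are uncertain.

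STAT and SOCS genes rose together, 14 of 14 tested (median 3.18), and 11 rose with 1 lower under total-count scaling. Cish, a SOCS family inhibitor of STAT5 signaling, had 2416 and 2549 normalized counts in LPS, against 5.77 and 5.19 in ctl (log2 fold change 8.58, SE 0.15, adjusted p = 4.9e-06). Socs3, which blocks signaling by interleukin-6 receptors, had 27118 and 27077 normalized counts in LPS, against 218 and 231 in ctl (log2 fold change 6.91, SE 0.06, adjusted p = 1.2e-06), and Socs1, which blocks interferon receptors, had 3106 and 3119.6 normalized counts in LPS, against 33.0 and 22.8 in ctl (log2 fold change 6.77, SE 0.20, adjusted p = 1.3e-05). Socs2 had 51.0 and 46.1 normalized counts in LPS, against 0 and 0 in ctl, at least 35.6-fold higher.

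The receptor complex of LPS itself was examined next. Tlr4 itself did not pass, with 6283 and 6326 normalized counts in LPS, against 7247 and 6499.8 in ctl, but was lower with total-count scaling, at -0.93 on the log2 scale, and it was called at -0.20 without ctl replicate 2. Its partners rose modestly under the deposited scaling, Cd14 with 103384 and 104494 normalized counts in LPS, against 50711 and 57769 in ctl (log2 fold change 0.94, SE 0.11, adjusted p = 9.7e-04) and Ly96 with 849 and 776 normalized counts in LPS, against 374 and 372 in ctl (log2 fold change 1.12, SE 0.10, adjusted p = 3.7e-04). The rise of Cd14 shrank to 0.13 on the log2 scale and was not called with total-count scaling or when either LPS replicate was left out. Over the whole Toll-like receptor list 24 of 31 were higher and 6 lower with a median of 1.04, whereas total-count scaling gave 15 higher and 12 lower. The list had 3 lower members instead of 6 without LPS replicate 1, and likewise without LPS replicate 2.

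Named members of that list moved in both directions. Myd88 had 19442 and 20095 normalized counts in LPS, against 3853 and 3675 in ctl (log2 fold change 2.39, SE 0.06, adjusted p = 8.8e-06). Traf1, an adaptor downstream of tumor necrosis factor receptors, had 52919 and 53574 normalized counts in LPS, against 1016 and 1049 in ctl (log2 fold change 5.69, SE 0.05, adjusted p = 1.2e-06). Tlr3, the receptor for double-stranded RNA, Ikbke, an IRF3 kinase, and Map3k8, the kinase TPL2 upstream of ERK, rose by 4.64, 4.46 and 3.64 on the log2 scale, and Tlr2 by 1.98. Tlr13, a receptor for bacterial ribosomal RNA, was lower with 706 and 645 normalized counts in LPS, against 4129 and 5617 in ctl (log2 fold change -2.83, SE 0.16, adjusted p = 8.5e-05), and Traf3 was lower by 1.39 on the log2 scale.

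Inflammasome and death sensors rose in 13 of 15 tested genes (12 with total-count scaling), with a median of 2.95. Nlrp3, the sensor of the canonical inflammasome, had 89437 and 90993 normalized counts in LPS, against 3900.3 and 2955 in ctl (log2 fold change 4.73, SE 0.14, adjusted p = 1.4e-05). Nod2 and Nod1, the peptidoglycan sensors, and their kinase Ripk2 rose by 5.09, 4.80 and 4.52 on the log2 scale. The DNA sensor gene Aim2 and the caspase gene Casp1 rose by 2.95 and 2.49 on that scale. Nlrp1b was lower at -0.45, a call that was lost without LPS replicate 1.

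Antigen presentation genes rose, with 17 of 19 genes of the list higher (16 with total-count scaling) and a median of 2.19. Tap1, a peptide transporter subunit, had 39063 and 40929 normalized counts in LPS, against 2083 and 1509 in ctl (log2 fold change 4.49, SE 0.16, adjusted p = 2.3e-05), and Nlrc5, the class I transactivator, had 19774 and 20461 normalized counts in LPS, against 1235 and 1406 in ctl (log2 fold change 3.93, SE 0.08, adjusted p = 6.1e-06). Tap2, the class I gene H2-T23, the immunoproteasome gene Psmb9 and H2-K1 rose by 3.04, 3.06, 2.93 and 1.79 on the log2 scale. Genes of the H2 family are alike in sequence, which makes their single values uncertain. Ciita, the class II transactivator, was lower with 15.8 and 11.9 normalized counts in LPS, against 28.9 and 56.0 in ctl, and this call was lost when either LPS replicate or ctl replicate 2 was left out.

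All 10 tested costimulatory and adhesion genes rose under both scalings, with a median of 5.79. Cd40, the receptor for the T cell ligand CD154, had 59086 and 61281 normalized counts in LPS, against 144 and 136 in ctl (log2 fold change 8.74, SE 0.06, adjusted p = 9.6e-07). Cd69 had 14377 and 14017 normalized counts in LPS, against 21.4 and 20.7 in ctl (log2 fold change 9.33, SE 0.09, adjusted p = 1.2e-06). Cd274, which encodes the checkpoint ligand PD-L1, had 37107 and 36902 normalized counts in LPS, against 358 and 564 in ctl (log2 fold change 6.36, SE 0.22, adjusted p = 2.0e-05), and Slamf7, a receptor of the SLAM family, had 2514 and 2052 normalized counts in LPS, against 22.3 and 62.2 in ctl. The log2 fold change of Slamf7 was 5.89, and it was 5.17 without ctl replicate 1 and 6.61 without ctl replicate 2. Vcam1 was not tested because only LPS replicate 1 carried it, at 193 normalized counts with 0 in the other 3 libraries. Slamf1 and Pdcd1lg2 were also under the filter. Pdcd1lg2 went the other way, with 0 and 0 reads in LPS, against 5 and 16 in ctl. It was at least 6.10-fold higher in ctl, against a floor of 3 reads over the LPS group.

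Enzymes of small mediators rose in 12 of 14 tested genes with 1 lower, a median of 3.67, and 11 higher and 3 lower with total-count scaling. Ptgs2, the inducible cyclooxygenase, had 281186 and 282405 normalized counts in LPS, against 592 and 525 in ctl (log2 fold change 8.98, SE 0.08, adjusted p = 1.2e-06). Its constitutive relative Ptgs1 was lower, with 88.8 and 63.2 normalized counts in LPS, against 325 and 249 in ctl (log2 fold change -1.91, SE 0.24, adjusted p = 0.0014). Nos2, the inducible nitric oxide synthase, had 45844 and 46744 normalized counts in LPS, against 254 and 215 in ctl (log2 fold change 7.62, SE 0.09, adjusted p = 2.1e-06). Slc7a2, which imports arginine, and Hdc, which makes histamine, rose by 9.31 and 9.34 on the log2 scale.

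Chemoattractant receptors split. Of 13 tested genes 9 were higher and 3 lower (7 and 3 with total-count scaling), with a median of 2.87. Adora2a, an adenosine receptor that restrains inflammation, had 3430.5 and 3424 normalized counts in LPS, against 4.95 and 7.26 in ctl (log2 fold change 8.93, SE 0.20, adjusted p = 7.4e-06). The formyl peptide receptor Fpr2 and the decoy receptor Ccrl2 rose by 6.82 and 7.38 on the log2 scale. The lower ones included 2 homing receptors. Cxcr4, the CXCL12 receptor, had 15.8 and 10.5 normalized counts in LPS, against 1032 and 1899 in ctl (log2 fold change -6.65, SE 0.36, adjusted p = 7.5e-05), and Cx3cr1, the fractalkine receptor, had 2224 and 2187 normalized counts in LPS, against 18058 and 17989 in ctl (log2 fold change -3.03, SE 0.05, adjusted p = 4.6e-06).

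The 12 named genes with the largest falls were Cd28, Hpgd, Ranbp3l, Cxcr4, Esco2, Thbd, Depdc1b, Fbxo5, Kbtbd11, Ung, Fam83d and Gpr183. Cd28, best known as a T cell costimulatory receptor, had 5.28 and 3.95 normalized counts in LPS, against 675 and 1103 in ctl (log2 fold change -7.28, SE 0.31, adjusted p = 3.7e-05). Hpgd, which inactivates prostaglandins, had 5.28 and 3.95 normalized counts in LPS, against 616 and 734 in ctl (log2 fold change -6.92, SE 0.23, adjusted p = 1.9e-05), the opposite direction to Ptgs2. Gpr183, the oxysterol receptor EBI2, had 44.8 and 35.6 normalized counts in LPS, against 3008 and 2926 in ctl (log2 fold change -6.18, SE 0.15, adjusted p = 8.3e-06). Thbd, the anticoagulant receptor thrombomodulin, had 1.76 and 1.32 normalized counts in LPS, against 179 and 248 in ctl, with 3 reads in LPS, and its ratio of ctl to LPS reads was 132 (exact 95% interval 45.0 to 645).

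Several of those falls belong to the cell cycle. Esco2, a cohesin acetyltransferase of S phase, had 22.0 and 14.5 normalized counts in LPS, against 1947 and 1757 in ctl (log2 fold change -6.62, SE 0.23, adjusted p = 2.1e-05). Fbxo5, which encodes EMI1, an inhibitor of the anaphase-promoting complex, had 29.0 and 25.0 normalized counts in LPS, against 2606 and 1907 in ctl (log2 fold change -6.32, SE 0.20, adjusted p = 1.6e-05). Ung, the uracil DNA glycosylase, had 18.5 and 11.9 normalized counts in LPS, against 1267 and 1108 in ctl (log2 fold change -6.23, SE 0.25, adjusted p = 3.1e-05), while Fam83d, a spindle protein gene, had 13.2 and 2.63 normalized counts in LPS, against 668 and 428 in ctl and Depdc1b had 10.6 and 3.95 normalized counts in LPS, against 747 and 528 in ctl. Leaving out LPS replicate 1 or LPS replicate 2 gave log2 fold changes of -7.20 and -5.24 for Fam83d and of -6.99 and -5.77 for Depdc1b. Ranbp3l, which encodes a nuclear export factor of SMAD proteins, and the kelch domain gene Kbtbd11 were lower, with log2 fold changes of -6.73 and -6.27.

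Among genes that passed the test, the losses that were largest in normalized counts were in Gpnmb, Tubb5, Sirpa, Ftl1, Ptma, Slco4a1, S100a4 and Serinc3. Lyz2, the lysozyme gene, with 284043 and 285753 normalized counts in LPS, against 361927 and 374977 in ctl, and Pkm, the pyruvate kinase gene, with 127967 and 129303 normalized counts in LPS, against 236054 and 159504 in ctl, differed by more in counts than Tubb5 and did not pass. Gpnmb, a lysosomal glycoprotein gene of lipid-laden macrophages, had 40934 and 39101 normalized counts in LPS, against 163021 and 233957 in ctl (log2 fold change -2.29, SE 0.19, adjusted p = 3.3e-04). Sirpa, which encodes the receptor for the don't-eat-me ligand CD47, had 12408 and 12234 normalized counts in LPS, against 49204 and 54223 in ctl (log2 fold change -2.07, SE 0.08, adjusted p = 2.6e-05). Slco4a1 fell the most of these, with 1509 and 1583 normalized counts in LPS, against 26448 and 35589 in ctl (log2 fold change -4.31, SE 0.15, adjusted p = 2.1e-05). The falls of Ftl1, Ptma and Serinc3, at -0.47, -0.98 and -0.48 on the log2 scale, were no longer called when either LPS replicate was left out.

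Replication genes fell as a class. Of 32 tested genes 30 were lower and 0 higher, with a median log2 fold change of -2.56, and all 32 were lower with total-count scaling. E2f2, an activator E2F, had 37.8 and 40.8 normalized counts in LPS, against 1696 and 1529 in ctl (log2 fold change -5.32, SE 0.13, adjusted p = 8.6e-06). Cdc6, which loads the replicative helicase, had 45.7 and 42.1 normalized counts in LPS, against 1577 and 1444 in ctl (log2 fold change -5.07, SE 0.13, adjusted p = 9.2e-06), and the helicase gene Mcm2 had 452 and 413 normalized counts in LPS, against 7382 and 6257 in ctl (log2 fold change -3.97, SE 0.11, adjusted p = 1.1e-05). Uhrf1, which maintains DNA methylation at forks, had 416 and 391 normalized counts in LPS, against 9520.3 and 7650.1 in ctl (log2 fold change -4.40, SE 0.12, adjusted p = 1.2e-05), and the thymidine kinase gene Tk1 fell by 4.44 on the log2 scale. The 2 that were not called were Pcna, with 14141 and 13644 normalized counts in LPS, against 17165 and 14989 in ctl and a call once either ctl replicate was left out (-0.11 and -0.31 on the log2 scale), and Rfc3, with a log2 fold change of 0.14 that was -0.67 with total-count scaling and 0.26, called, without ctl replicate 1.

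Mitosis genes fell as well, 32 of 33 lower with a median of -3.63, and 33 of 33 with total-count scaling. Ccna2, which encodes cyclin A2, had 304 and 311 normalized counts in LPS, against 12287 and 8887 in ctl (log2 fold change -5.08, SE 0.16, adjusted p = 1.7e-05). Cenpf, a kinetochore protein gene, had 93.2 and 77.7 normalized counts in LPS, against 4060.3 and 2802 in ctl (log2 fold change -5.29, SE 0.21, adjusted p = 3.1e-05), Espl1, the separase gene, had 89.7 and 100.1 normalized counts in LPS, against 3733 and 2953 in ctl, and Kif23, a central spindle kinesin gene, had 173 and 174 normalized counts in LPS, against 5902 and 4336 in ctl. Plk1 and Ccnb1 were lower, with log2 fold changes of -4.55 and -4.19. Bub1b, a checkpoint kinase gene, was the member not called, with 12039 and 12103 normalized counts in LPS, against 10884 and 8201 in ctl (log2 fold change 0.35, SE 0.14, adjusted p = 0.072), and its sign turned with total-count scaling, to -0.46. Bub1b was called at 0.56 without ctl replicate 1 and at 0.15 without ctl replicate 2, on the log2 scale.

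Cell cycle regulators outside the replication and mitosis lists split, with 9 of 17 higher (52.9%) and 4 lower (23.5%). Over all tested genes 38.2% were higher and 36.2% lower. The list median was 0.52, and with total-count scaling 7 members were higher and 9 lower. Ccnd2 and Ccnd1, D cyclin genes, moved in opposite directions under both scalings. Ccnd2 had 8376 and 8428 normalized counts in LPS, against 26.4 and 3.11 in ctl (log2 fold change 9.63, SE 0.88, adjusted p = 4.5e-04), and its ctl libraries differed more than 8-fold, with a log2 fold change of 8.26 without ctl replicate 2, against 9.63 with both. Ccnd1 had 2295 and 2314 normalized counts in LPS, against 17815 and 14533 in ctl (log2 fold change -2.80, SE 0.11, adjusted p = 2.8e-05). Cdkn1a, the p21 inhibitor, had 97005 and 97877 normalized counts in LPS, against 8278 and 8952 in ctl (log2 fold change 3.50, SE 0.07, adjusted p = 6.4e-06), whereas Cdkn2c, the p18 inhibitor, had 102 and 137 normalized counts in LPS, against 2229 and 1897 in ctl (log2 fold change -4.11, SE 0.18, adjusted p = 4.0e-05). Ccng2 rose by 3.12 on the log2 scale. Of 7 tested histone genes 3 were lower and 1 higher (4 and 1 with total-count scaling), with a median of 0.23, and 4 were higher without ctl replicate 1. H2afx, H2afz and Hist2h2be were lower, with log2 fold changes of -3.74, -1.54 and -2.65, and Hist3h2a rose by 1.21 on that scale. The other 10 of the 17 listed histone genes were under the filter.

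Genes with a JmjC domain, many but not all of them histone demethylase genes, did not move as a class. Of 27 tested, 12 were higher (44.4%) and 10 lower (37.0%), against 38.2% and 36.2% over all tested genes. The median was -0.11, and 5 were higher and 19 lower with total-count scaling. Kdm6b (Jmjd3; chromosome 11, 69398508 to 69420367), which removes methyl groups from lysine 27 of histone H3, had the largest change of the list. It had 8286 and 8284 normalized counts in LPS, against 595 and 481 in ctl (log2 fold change 3.95, SE 0.11, adjusted p = 1.3e-05), and was 15.4-fold higher in LPS. Its relative Kdm6a (Utx) was slightly lower, with 1103 and 1084 normalized counts in LPS, against 1321 and 1305 in ctl (log2 fold change -0.26, SE 0.07, adjusted p = 0.019), and this call was lost when either LPS replicate was left out. Jarid2, Kdm4a and Kdm5b rose by 2.54, 1.79 and 1.62 on the log2 scale. Without LPS replicate 1 the list had 4 lower members, and without LPS replicate 2 it had 5.

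The writers of the same mark, Polycomb repressive complex 2 and its cofactors, had 6 of 11 listed genes lower (54.5%) and 3 higher (27.3%). Over all tested genes 36.2% were lower and 38.2% higher. The median was -0.41, and 8 genes were lower and 1 higher with total-count scaling. Jarid2, a further cofactor that rose, was counted with the JmjC genes above. Ezh2, the catalytic subunit that cycling cells use most, had 1081 and 1057 normalized counts in LPS, against 4897 and 3187 in ctl (log2 fold change -1.88, SE 0.21, adjusted p = 8.6e-04). Phf19, a cofactor that recruits the complex, had 84.4 and 90.9 normalized counts in LPS, against 1814 and 1409 in ctl (log2 fold change -4.17, SE 0.16, adjusted p = 2.8e-05). Eed, a core subunit, fell by 0.59 on the log2 scale. Not all core genes fell like Ezh2. Before scaling, the other catalytic subunit gene Ezh1 had 2240 and 1512 reads in LPS, against 1615 and 1455 in ctl. Suz12, also of the core, had 8675 and 5730 reads in LPS, against 9982 and 6937 in ctl. The size factors were 1.14 and 0.759 in LPS and 1.21 and 0.964 in ctl. Aebp2, another cofactor, was higher with 32061 and 31150.2 normalized counts in LPS, against 7235 and 6990.4 in ctl (log2 fold change 2.15, SE 0.06, adjusted p = 1.2e-05). Mtf2 was higher at 0.78 on the log2 scale, and at -0.030 with total-count scaling.

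The BCL2 family list, which holds both survival and proapoptotic genes, had 11 of 17 tested members higher and 4 lower (9 and 7 with total-count scaling), with a median of 1.18, and 2 were lower when either LPS replicate was left out. The A1 genes, antiapoptotic NF-κB targets, led the list. Bcl2a1b had 32333 and 32467 normalized counts in LPS, against 1844 and 1747 in ctl, and Bcl2a1d had 20125 and 20398 normalized counts in LPS, against 967 and 916 in ctl. Bcl2a1a had the largest fold, with 2187 and 2214 normalized counts in LPS, against 8.25 and 5.19 in ctl. These are near-identical copies, and the split of reads among them is uncertain. The proapoptotic gene Bcl2l11 rose by 3.25 on the log2 scale, Bcl2 fell by 1.05 on that scale, and Bmf, a proapoptotic gene, had 54.5 and 67.2 normalized counts in LPS, against 671 and 1146 in ctl (log2 fold change -3.84, SE 0.29, adjusted p = 2.3e-04).

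Genes of cholesterol handling were higher in part and lower in part. In the synthesis and uptake list 6 of 27 were higher and 12 lower, with a median of -0.19, and 1 was higher and 18 lower with total-count scaling. The falls included the last and the first enzymes of the pathway. Dhcr7, the last enzyme of synthesis, had 321 and 336 normalized counts in LPS, against 2486 and 3290.3 in ctl (log2 fold change -3.12, SE 0.15, adjusted p = 5.4e-05), and Sqle, the squalene epoxidase, had 1518 and 1480.1 normalized counts in LPS, against 4475 and 6148 in ctl (log2 fold change -1.81, SE 0.16, adjusted p = 3.7e-04). Acat2, an acetyl-CoA thiolase of the first step, fell by 2.15 on the log2 scale. Without LPS replicate 1 or 2 the list had 3 higher and 7 lower, and without ctl replicate 2 it had 12 higher. The ctl libraries themselves differed here, with 0.213% and 0.289% of reads.

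Of the LXR and efflux genes 8 of 18 were higher (44.4%) and 6 lower (33.3%), near the shares over all tested genes (6 and 10 with total-count scaling), with a median of 0.31. Abca1, which exports cholesterol to apolipoprotein A-I, had 7579 and 7415 normalized counts in LPS, against 484 and 548 in ctl (log2 fold change 3.86, SE 0.08, adjusted p = 6.5e-06). Mylip, a ubiquitin ligase gene induced by LXR, had 4434 and 4343 normalized counts in LPS, against 788 and 744 in ctl (log2 fold change 2.52, SE 0.07, adjusted p = 1.0e-05), and the desaturase gene Scd1 and the lysosomal carrier gene Npc2 rose by 2.03 and 1.91 on the log2 scale. The paralog Scd2 had 6272 and 6258 normalized counts in LPS, against 21943 and 31951 in ctl (log2 fold change -2.08, SE 0.18, adjusted p = 3.8e-04). Rxra, the partner of LXR, had 257 and 284 normalized counts in LPS, against 1673 and 2029 in ctl (log2 fold change -2.76, SE 0.13, adjusted p = 4.9e-05). Soat1, which esterifies cholesterol, and Nceh1, which hydrolyzes the esters, were lower, with log2 fold changes of -1.48 and -1.99. Cyp27a1, the sterol 27-hydroxylase, had 2070.1 and 2073 normalized counts in LPS, against 1141 and 1552 in ctl, a log2 fold change of 0.64 that was -0.17 with total-count scaling and lost its call when either LPS replicate was left out. Apoe gave no call with both LPS replicates and was -2.09 on the log2 scale without LPS replicate 1 and 5.56 without LPS replicate 2, both called.

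Most called genes of mitochondrial respiration were lower. Of 41 respiratory chain and ATP synthase genes 23 were lower and 4 higher, with a median of -0.25 and a range from -0.85 to 0.52, and 40 were lower and 0 higher with total-count scaling. Atp5g1 had 1594 and 1696 normalized counts in LPS, against 3289 and 2682 in ctl (log2 fold change -0.85, SE 0.11, adjusted p = 0.0018). Ndufb10, Ndufa4 and Ndufs7, complex I or IV subunits, were lower, with log2 fold changes of -0.62, -0.58 and -0.55. Cycs, cytochrome c, had a log2 fold change of 0.52 under the deposited scaling, a call lost when either LPS replicate was left out, and -0.29 under total-count scaling. With either LPS replicate left out 7 members were lower and 0 higher, and 8 were higher without ctl replicate 1.

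The tricarboxylic acid cycle list had 13 of 20 genes lower and 4 higher (19 and 1 with total-count scaling) and a median of -0.32, with 8 lower and 1 higher when either LPS replicate was left out. Idh1, the cytosolic isocitrate dehydrogenase, had 4179 and 4086 normalized counts in LPS, against 14879.6 and 22523 in ctl (log2 fold change -2.15, SE 0.20, adjusted p = 4.6e-04). Pdk1, which restrains pyruvate dehydrogenase, had 454 and 398 normalized counts in LPS, against 3879 and 3293 in ctl (log2 fold change -3.07, SE 0.12, adjusted p = 2.9e-05). Aco1, the cytosolic aconitase, fell by 0.93 on the log2 scale, and Dld was higher with 22721 and 21797 normalized counts in LPS, against 10766 and 9353 in ctl (log2 fold change 1.15, SE 0.09, adjusted p = 2.4e-04).

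Of glycolysis and HIF-1 target genes 10 of 26 were higher (38.5%) and 8 lower (30.8%), near the 38.2% and 36.2% over all tested genes, with a median of -0.07 (5 and 17 with total-count scaling). The hexokinase gene Hk2 was higher, with 16729 and 16511 normalized counts in LPS, against 4244 and 4026 in ctl (log2 fold change 2.01, SE 0.06, adjusted p = 1.3e-05). Phosphofructokinase genes moved in opposite directions under both scalings, Pfkp with 37164 and 37541 normalized counts in LPS, against 9782 and 7298 in ctl (log2 fold change 2.14, SE 0.15, adjusted p = 1.7e-04) and Pfkl with 2295 and 2289 normalized counts in LPS, against 5622 and 5187 in ctl (log2 fold change -1.24, SE 0.06, adjusted p = 6.9e-05). Adm, the adrenomedullin gene, had 413 and 449 normalized counts in LPS, against 2.47 and 3.11 in ctl (log2 fold change 6.84, SE 0.23, adjusted p = 2.0e-05). Other glycolysis genes were read less in LPS despite its deeper libraries. Tpi1 had 9649 and 6424 reads before scaling, against 33087 and 19964 in ctl. Ldha had 26706 and 18020 reads in LPS, against 62795 and 38455 in ctl. The whole list took 0.667% and 0.672% of reads in LPS, against 1.54% and 1.18% in ctl.

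Cytosolic ribosomal protein genes show how far a small change depends on the scaling. Under the deposited scaling 36 of 39 were higher and 1 lower, with a median of 0.58, and under total-count scaling 0 were higher and 15 lower, with a median of -0.23. Rps20 had 44942 and 47324 normalized counts in LPS, against 24844 and 29423 in ctl, a log2 fold change of 0.77 under the deposited scaling or -0.038 under total-count scaling. Rps24 and Rps7 had log2 fold changes of 0.74 and 0.74 under the deposited scaling and -0.065 and -0.065 under total-count scaling. Without LPS replicate 1 the list had 1 higher member, and without LPS replicate 2 it had 0. Rpl30, the lower one, had only 7.91 and 2.63 normalized counts in LPS, against 15.7 and 18.7 in ctl, and its call was lost without LPS replicate 2 and without ctl replicate 2. Ribosomal protein genes have many processed copies, and how reads were divided among these is uncertain.

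**Figure D5:**
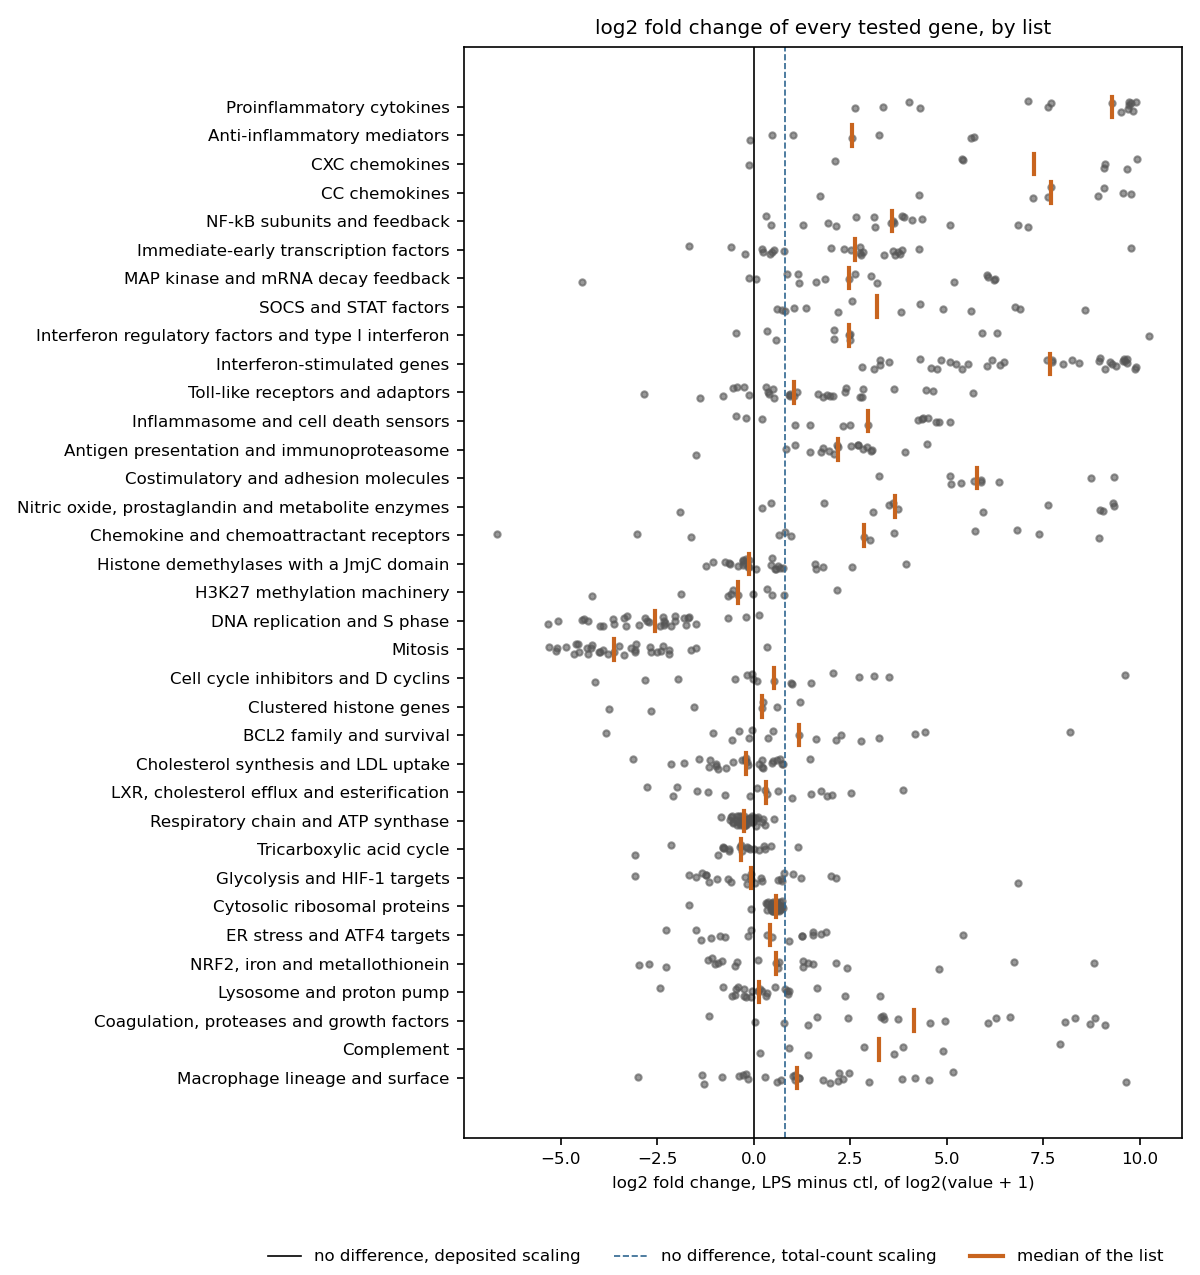
Log2 fold change (LPS minus ctl) of every tested gene of each list, 1 point a gene, with the list median in orange. The solid line marks no difference under the deposited scaling and the dashed line no difference under total-count scaling, and genes between the lines, such as the ribosomal protein genes with a median of 0.58, are higher under the first and lower under the second.

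Stress genes were called in both directions. In the endoplasmic reticulum and ATF4 list 10 of 18 were higher (55.6%) and 6 lower (33.3%), against 38.2% and 36.2% over all tested genes. The median was 0.41, and 4 were higher and 9 lower with total-count scaling. Fewer were higher when either LPS replicate was left out. Ppp1r15a (Gadd34), which restarts translation, had 53208 and 54174 normalized counts in LPS, against 1444 and 1079 in ctl (log2 fold change 5.43, SE 0.14, adjusted p = 1.1e-05). Sesn2, a stress-induced inhibitor of mTORC1, had 5054 and 5162 normalized counts in LPS, against 1629 and 1437 in ctl (log2 fold change 1.74, SE 0.08, adjusted p = 4.7e-05). Chac1, which degrades glutathione, had 3102 and 3397 normalized counts in LPS, against 1348 and 572 in ctl, with ctl libraries more than 2-fold apart, and was not called with total-count scaling or when either LPS replicate was left out. The chaperone gene Dnajb9 was lower, with 209 and 226 normalized counts in LPS, against 1063 and 1033 in ctl (log2 fold change -2.26, SE 0.10, adjusted p = 4.2e-05).

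In the NRF2 and iron list 12 of 23 were higher (52.2%) and 9 lower (39.1%), against 38.2% and 36.2% over all tested genes. The median was 0.59, and 9 were higher and 11 lower with total-count scaling. Fewer were lower when either LPS replicate was left out. The siderophore-binding gene Lcn2 had 5936 and 6169 normalized counts in LPS, against 8.25 and 18.7 in ctl (log2 fold change 8.81, SE 0.37, adjusted p = 3.5e-05). The acute phase gene Saa3 had 16612 and 16138 normalized counts in LPS, against 118 and 196 in ctl (log2 fold change 6.74, SE 0.24, adjusted p = 2.4e-05). Both rose with no overlap of the groups. The metallothionein gene Mt2 had 90221 and 87915 normalized counts in LPS, against 3942 and 2585 in ctl (log2 fold change 4.80, SE 0.20, adjusted p = 3.7e-05). An opposite-strand gene shares 73.5% of the exonic bases of Mt2. Listed NRF2 targets moved in both directions. Gclc, the glutathione synthesis enzyme, had 718 and 701 normalized counts in LPS, against 4789 and 4449 in ctl (log2 fold change -2.70, SE 0.07, adjusted p = 1.0e-05). Osgin1 and Hmox1 were lower, with log2 fold changes of -2.97 and -1.09. Before scaling, Sqstm1 had 195768 and 132940 reads in LPS, against 40417 and 30545 in ctl. Slc7a11 had 9638 and 6523 reads in LPS, against 3945 and 2526 in ctl. These reads of Sqstm1 and Slc7a11 are not corrected for depth, and no fold change is given for them. The size factors were 1.14 and 0.759 in LPS and 1.21 and 0.964 in ctl. Slc40a1, the iron exporter ferroportin, had 22.0 and 6.58 normalized counts in LPS, against 47.8 and 80.9 in ctl, and this call was lost without LPS replicate 2.

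Of lysosomal genes 9 of 24 were higher (37.5%) and 5 lower (20.8%), against 38.2% and 36.2% over all tested genes (3 and 16 with total-count scaling), the median was 0.13, and there were 5 higher and 3 lower when either LPS replicate was left out and 12 lower without ctl replicate 1. Mitf and Tfeb, related factors that drive lysosome genes, moved in opposite directions under both scalings, Mitf with 21139 and 21291 normalized counts in LPS, against 3757 and 4516 in ctl (log2 fold change 2.36, SE 0.10, adjusted p = 3.7e-05) and Tfeb with 223 and 212 normalized counts in LPS, against 1059.8 and 1313 in ctl (log2 fold change -2.43, SE 0.14, adjusted p = 8.3e-05). The cathepsin genes Ctsl and Ctsh rose by 1.65 and 3.28 on the log2 scale.

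Coagulation, protease and growth factor genes rose in 18 of 20 tested members with 1 lower, a median of 4.15, and 16 higher and 2 lower with total-count scaling. F3, tissue factor, had 1977 and 1939.7 normalized counts in LPS, against 3.30 and 4.15 in ctl (log2 fold change 8.70, SE 0.18, adjusted p = 6.3e-06). Serpinb2, an inhibitor of plasminogen activators, had 1106 and 1015 normalized counts in LPS, against 0.825 and 1.04 in ctl, with 2 ctl reads and a ratio of 1164 (exact 95% interval 322 to 9620). Edn1, endothelin-1, also had 2 ctl reads, with 569.8 and 559.7 normalized counts in LPS, against 0 and 2.07 in ctl and a ratio of 616 (exact 95% interval 170.0 to 5091), and its log2 fold change was 7.52 without ctl replicate 1 and 9.14 without ctl replicate 2. The collagenase gene Mmp13 had 962 and 402 normalized counts in LPS, against 1.65 and 1.04 in ctl, with LPS libraries more than 2-fold apart, 3 ctl reads and a ratio of 535 (exact 95% interval 183 to 2598).

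Complement genes rose in 7 of 8 tested members (6 with total-count scaling), with a median of 3.26. Cfb, factor B of the alternative pathway, had 13488 and 13623 normalized counts in LPS, against 53.6 and 56.0 in ctl (log2 fold change 7.92, SE 0.08, adjusted p = 1.3e-06), although 79.5% of its exonic bases are shared with another annotated gene on the same strand. C3 had 60001 and 60483 normalized counts in LPS, against 1485 and 2713 in ctl (log2 fold change 4.91, SE 0.28, adjusted p = 9.3e-05), and its receptor C3ar1 had 20980.4 and 20849.8 normalized counts in LPS, against 1776 and 1570.5 in ctl (log2 fold change 3.65, SE 0.08, adjusted p = 6.3e-06). C1s1 was low, with 61.6 and 29.0 normalized counts in LPS, against 3.30 and 1.04 in ctl.

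Genes of macrophage identity and surface rose in 20 of 28 tested members and fell in 4, with a median of 1.12, against 15 and 10 with total-count scaling, and 8 were lower without ctl replicate 1. Csf1, the growth factor of the lineage, had 31109 and 31213 normalized counts in LPS, against 39.6 and 36.3 in ctl (log2 fold change 9.65, SE 0.08, adjusted p = 1.1e-06), whereas its receptor Csf1r was not called, with 84839.8 and 87077 normalized counts in LPS, against 86774 and 103670.3 in ctl, except with total-count scaling, where it was lower at -0.95 on the log2 scale, and without ctl replicate 1, where it had -0.27. Clec4e, the receptor Mincle for mycobacterial glycolipid, had 136412 and 137093 normalized counts in LPS, against 8000.2 and 7124 in ctl (log2 fold change 4.18, SE 0.09, adjusted p = 6.1e-06). The transcription factor genes moved apart, Maf with 1132 and 874 normalized counts in LPS, against 23.1 and 75.7 in ctl (log2 fold change 4.53, SE 0.56, adjusted p = 0.0013) and Cebpa with 398 and 395 normalized counts in LPS, against 2925 and 3389 in ctl (log2 fold change -2.99, SE 0.10, adjusted p = 1.8e-05). The log2 fold change of Maf was 3.70 without ctl replicate 1 and 5.37 without ctl replicate 2. Trem2, a lipid-sensing receptor, fell by 1.35 on the log2 scale. Mertk, an efferocytosis receptor, had 335 and 241 normalized counts in LPS, against 1.65 and 22.8 in ctl, with ctl libraries more than 10-fold apart, and its call was lost when either LPS replicate was left out.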

How the data were processed

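RNA was measured by bulk RNA-seq in RAW macrophages. The authors deposited signal values, which are whole read counts per gene divided by 1 size factor per library. The aligner STAR 2.5.3, the counter HTSeq 0.9.1, DESeq2 1.18.1 and mm10 appear in the submitters' processing notes, whereas the study's methods name Salmon and a later DESeq2, and which of these made the table is not stated. Estimated counts rounded to whole reads would look the same. No source used here says whether counting took strand into account. Genes with an antisense or near-identical partner are therefore uncertain. Division of each library by the value of 1 read gave whole numbers for 100% of values (tolerance 0.01), and these recovered reads gave the depths.

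Of 10 deposited tables, 1 was used. Its columns of the authors' own comparison (fold changes, errors, statistics, p-values) and the tables' other 16 per-library columns were not used. Column names give the group and a replicate number, and no more.

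Genes with a value of 10 or more in at least 2 of 4 libraries were tested with limma 3.58.1 (R 4.3.3), with an intensity trend, on log2(value + 1). P-values were adjusted by Benjamini-Hochberg over all 11805 genes, and a call is an adjusted p under 0.05. The fold of a low gene is understated on this scale. Alternatives were TMM and total-count scaling, edgeR 4.0.16 and DESeq2 1.42.0 on recovered reads, pseudocounts of 0.5 and 10, no filter, a filter at 50, no trend, a replicate block and leaving out each library. The fit was tested on simulated data. Reads at 0 in a group were set to 3 for a lower bound, and intervals cover counting error only.

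Genes named are the 12 largest rises and falls, the 8 largest gains and losses in counts, genes the study measured, the leading members of each list, and further members chosen after their values were seen. Some members are not reported here. The comparison and its lists were chosen with earlier results of these data known. Older symbols were used for 15 list genes. Gene positions and promoters come from RefSeq and shares of exonic bases from GENCODE vM21, all on GRCm38, the assembly that mm10 names.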

Additional observations from a re-analysis of the deposited data

How the results depend on the processing

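The counts of genes higher and lower stayed within 1.5 times of 4513 and 4271 under TMM scaling, edgeR, DESeq2, both pseudocounts, both filters and the fit without a trend. Total-count scaling gave 2129 higher and 7931 lower, and lowered the share of higher among called genes to 21.2%, against 51.4% with the deposited scaling. Leaving out 1 library gave 3151 to 5079 higher and 2925 to 4816 lower. In such fits the lone library is assumed to vary like the other group.

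With a replicate block the counts were 4484 higher and 4274 lower. Deviations of libraries with the same number had a correlation of 0.013 over genes, so no common shift was seen. With 2 libraries per group this cannot tell whether libraries with the same number were handled together.

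Log2 fold changes that turned sign with total-count scaling were those of Cyp27a1 (-0.17), Mtf2 (-0.030), Rps7 (-0.065), Rps20 (-0.038), Rps24 (-0.065), Fos (-0.29), Bub1b (-0.46), Rfc3 (-0.67) and Cycs (-0.29). This follows from the shift of all genes by -0.81. When 1 library was left out, Apoe ranged from -2.09 to 5.56 and Cxcl14 from -1.02 to 0.77. Depth limits values near 3 reads, as in Csf2, Il10 and Thbd. Groups of 2 libraries give few residual degrees of freedom, and a call that is missed does not show that levels were equal.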

Other observations

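Genes read almost only in LPS replicate 1 included genes of 2 kinds, and others, such as Slco3a1 and Cyp1b1, were of neither kind. Connective tissue genes included Col1a2, at 303 normalized counts in LPS replicate 1 against 1.32 in LPS replicate 2, Sparc, at 149 against 0, and Fn1, at 125 against 0. Genes of resident macrophages included C1qa, at 313 against 0, and C1qc, at 554 against 1.32. Col1a2, Sparc, Fn1, C1qa and C1qc had at most 2.07 normalized counts in either ctl library, and none of them passed the low value filter. Where these reads came from was not tested.

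A few genes named for other cell types rose in both LPS libraries. Zbtb46, a transcription factor used to mark dendritic cells, had 352 and 358 normalized counts in LPS, against 92.4 and 113 in ctl. Cdh5, the endothelial cadherin gene, had 32.5 and 32.9 normalized counts in LPS, against 4.95 and 1.04 in ctl. Pecam1 and Tek, other endothelial genes, had at most 6.16 normalized counts in any library.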
